A study of Arabidopsis thaliana with 6 samples.

Results

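AT4G26830 and BGLU15 (AT2G44450) are genes of enzymes that cut glucose-containing carbohydrates, and both had their highest signal in growing pollen tubes. AT4G26830 belongs to glycosyl hydrolase family 17 (GH17), and BGLU15 is a beta-glucosidase of family 1 (GH1). These 2 genes were taken from 13355 genes with a probe set paired with them alone. Each has 1 such probe set, 253934_at for AT4G26830 and 267388_at for BGLU15. They were chosen on their signal over the 6 arrays, so their levels and differences are a description and carry no test.

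The samples were Arabidopsis thaliana Columbia pollen from plants aged 50 days, with no transgene in the labels, at 3 stages with 2 Affymetrix ATH1 arrays each, which the series' design text calls biological replicates. Dry mature pollen was drawn off freshly opened flowers by vacuum. Hydrated pollen was shaken out of flowers into sucrose medium, spun down and kept in a thin liquid film for 45 min at 25 °C. Pollen tubes came from the same procedure after 4 h at 25 °C, had grown to about 150 µm, and were held back on a mesh of 50 µm that let ungerminated grains through. Germination in the film is given as 70 to 75%, so hydrated samples also held grains that would not have germinated. Hydration and release into medium cannot be told apart in hydrated against mature pollen. Tube growth, time in culture and retention on the mesh cannot be told apart in tubes against hydrated pollen. Each array carried RNA pooled over many grains or tubes, so more transcript per cell and more cells with the transcript cannot be told apart.

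GH17 enzymes hydrolyse beta-1,3-glucans. The main such polymer of plants is callose, which lines the inner wall of pollen tubes and forms the plugs that close off their older parts. Members of the family also act in defence, in release of microspores from their callose wall, and at plasmodesmata. GH1 beta-glucosidases remove a terminal glucose from small glycosides and oligosaccharides, and plants use them to activate hormones and defence compounds and to turn over flavonoids. Recombinant Arabidopsis BGLU15 is known to cleave glucose from flavonol glycosides, which are abundant in pollen.

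AT4G26830 gave a signal of 47.9 and 37.2 in mature pollen, 85.1 and 68 in hydrated pollen, and 2611.1 and 3014.9 in pollen tubes, in the arbitrary units of the arrays. Both tube arrays stood far above the other 4, and no arrays of different stages overlapped. Its stage means (SD, n = 2 each) were 42.55 ± 7.57 for mature pollen, 76.55 ± 12.1 for hydrated pollen and 2813 ± 286 for tubes. The signal lay above the 60th percentile of its array, used here as the limit of background, on all 6 arrays. It was 1.41 and 1.48 times that percentile in mature pollen, 3.09 and 2.89 times in hydrated pollen, and 82.9 and 153 times in tubes. In mature pollen the gene was therefore measured close to the limit of background, while 98% and 98.1% of the probe sets of the tube arrays lay below it.

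BGLU15 gave 44.2 and 41.9 in mature pollen, 84.3 and 72.5 in hydrated pollen, and 292.6 and 312.8 in tubes. The order of the stages was that of AT4G26830, again without overlap, but the step into tubes was smaller. Its stage means (SD, n = 2 each) were 43.05 ± 1.63 for mature pollen, 78.4 ± 8.34 for hydrated pollen and 302.7 ± 14.3 for tubes. BGLU15 stood at 1.30 and 1.67 times the 60th percentile in mature pollen, at 3.07 and 3.09 times in hydrated pollen, and at 9.29 and 15.9 times in tubes. The signal levels of AT4G26830 and BGLU15 are not set against each other here, since probe sets differ in how strongly they bind. The same limits any ranking of probe sets by signal.

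**Figure D1:**
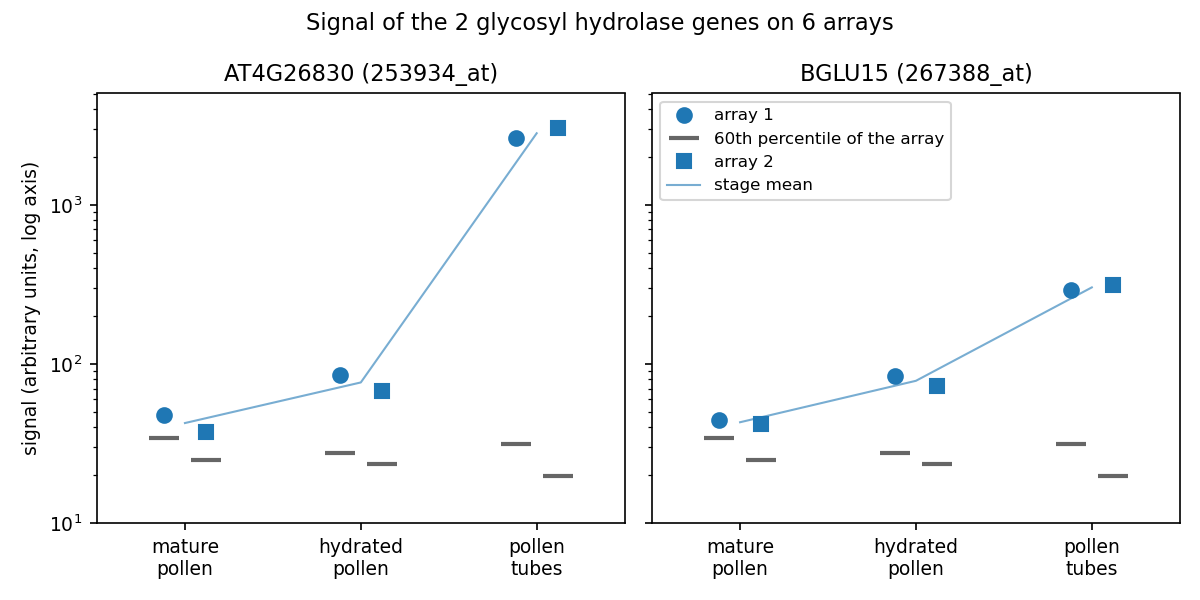
Signal of AT4G26830 (left) and BGLU15 (right) on each array by stage, in arbitrary units on a log axis; circles and squares are arrays 1 and 2, the line joins stage means, and grey bars mark each array's 60th percentile. Both genes lie above the bars on all 6 arrays, with tube signals of 2611.1 and 3014.9 for AT4G26830 and of 292.6 and 312.8 for BGLU15.

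In tubes against hydrated pollen, AT4G26830 was higher by 5.20 ± 0.36 on the log2 scale (SE from limma over all arrays), a 36.9-fold difference. Of the 11412 probe sets tested, 57 had a larger difference in this direction. Within replicate number 1 the difference was 30.7-fold, and within number 2 it was 44.3-fold. BGLU15 was higher by 1.95 ± 0.41, a 3.87-fold difference, with 3.47-fold and 4.31-fold within the replicate numbers, and 720 probe sets had a larger difference. For both genes replicate number 1 held the lower tube array and the higher hydrated array. Its folds of 30.7 and 3.47 are thus also the smallest between arrays of these stages. Both tube arrays lay above both hydrated arrays in 20% of all tested probe sets.

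In hydrated against mature pollen the differences of the pair were alike in size, at 0.85 ± 0.36 for AT4G26830 and 0.86 ± 0.41 for BGLU15, or 1.80-fold and 1.82-fold. Within the replicate numbers they were 0.83 and 0.87 for AT4G26830, and 0.93 and 0.79 for BGLU15. As many as 1579 and 1552 probe sets had a larger difference at this step, and both hydrated arrays lay above both mature arrays in 15.7% of all tested probe sets. These SEs draw on the spread of all genes of similar signal.

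In tubes against mature pollen, AT4G26830 was higher by 6.05 ± 0.36, or 66.5-fold, and BGLU15 by 2.81 ± 0.41, or 7.03-fold. Of the 11412 tested probe sets, 59 and 451 had a larger difference. Hydration made up 14% of this log2 difference in AT4G26830 and 30.6% in BGLU15, and the tube step 86.0% and 69.4%. Both tube arrays lay above both mature arrays in 20.8% of all tested probe sets. Across the 6 arrays the log2 signals of the pair had a Pearson coefficient of 0.985, given as a description, since the arrays of a stage and the scaling are shared.

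The other GH17 genes tested gave no call at any step, which for so few genes lies near the shares over all probe sets. In simulated data the fit missed many changes of 2 log2 units, so the lack of calls does not show that these genes were unchanged. The family list held 51 genes, of which 41 were named on the array here, and 40 remained without AT4G26830. Of these 40, 7 lay above the 60th percentile on all 6 arrays and 12 on none. The filter for testing, signal above that percentile on at least 2 arrays, was passed by 21 and failed by 19. In tubes against hydrated pollen 0 of the 21 rose and 0 fell by limma's adjusted p, with 1 at an unadjusted p under 0.05, beside 4.57% of all tested probe sets called in either direction (2.54% upward). The median log2 change of the 21 was -0.20, and that of all tested probe sets -0.06. In hydrated against mature pollen 0 of 21 passed either way, with 0 at an unadjusted p under 0.05, beside 0.578% of all probe sets (0.526% upward), and the medians were 0.12 for the list and -0.02 for all. In tubes against mature pollen 0 of 21 passed, with 3 at an unadjusted p under 0.05, beside 7.9% of all probe sets (4.61% upward), and the medians were -0.28 and -0.12. The highest value of the 21 at the tube step was 1.00, for AT2G39640 at signals of 5.5 to 36.9, against 5.20 for AT4G26830, which was chosen for its rise.

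**Figure D2:**
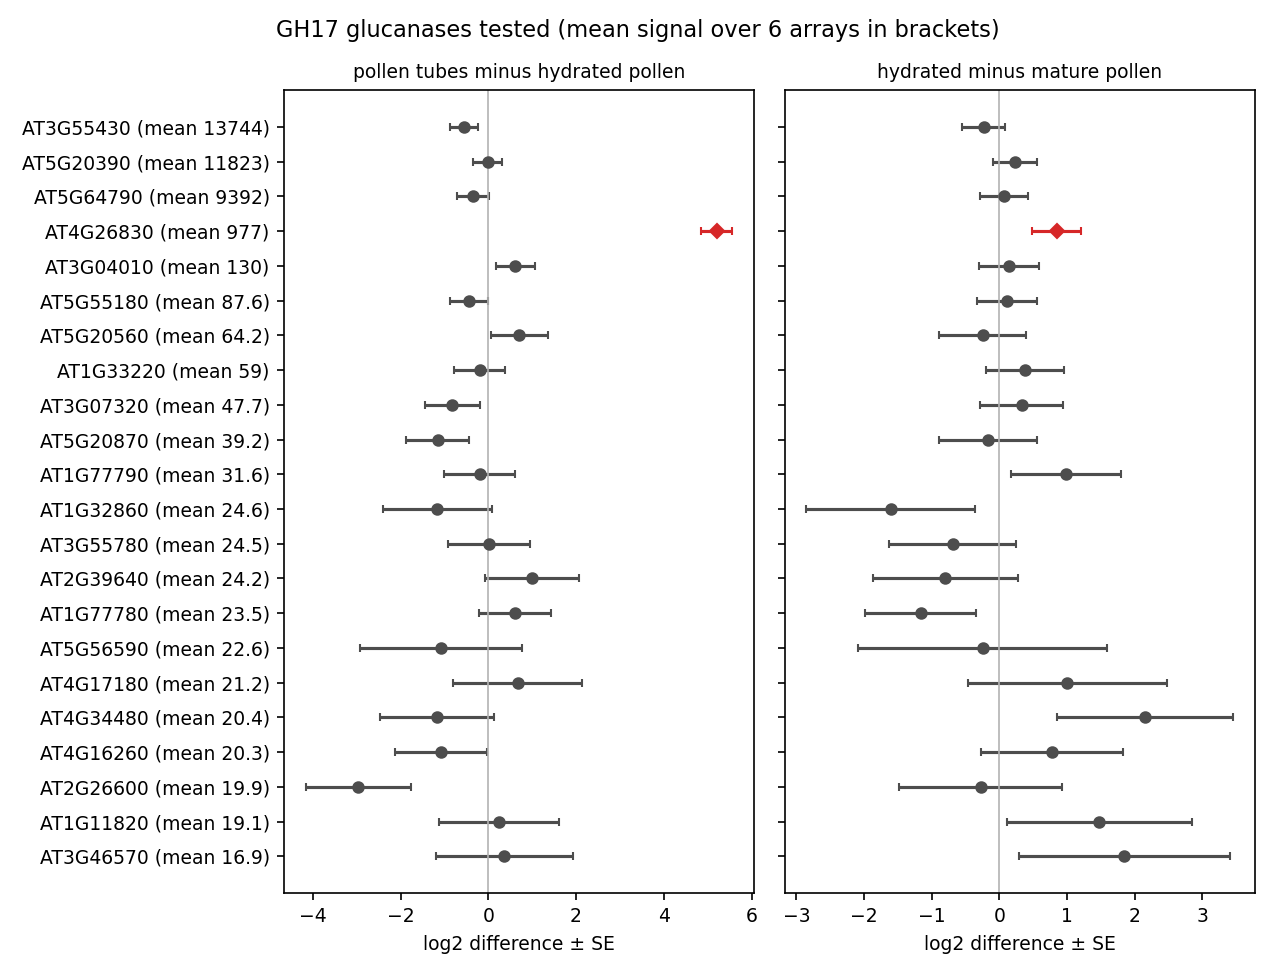
Log2 difference with its SE for the 22 GH17 genes tested, in tubes minus hydrated pollen (left) and hydrated minus mature pollen (right), in the order of mean signal over the 6 arrays. AT4G26830 (red diamond) lies at 5.20 in the left panel, while the other 21 lie between -2.96 and 1.00.

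A trio of GH17 genes gave high signals at every stage. AT3G55430 read 14815.3 and 19123.3 in mature pollen, 12400.9 and 16545.9 in hydrated pollen, and 8730.8 and 10850.4 in tubes. Its change in tubes against mature pollen was -0.79 ± 0.32 (limma adjusted p = 0.205, and adjusted p = 0.00446 with the replicate number as a block). Of all tested probe sets, 2159 were called in that comparison with the block, and 901 without it. AT5G20390 read 8826.4 and 12566.9 in mature pollen, 10623.7 and 14369.7 in hydrated pollen, and 11218.4 and 13335.3 in tubes. The stages of AT5G20390 overlapped throughout, with a change of -0.01 ± 0.33 in tubes against hydrated pollen (limma adjusted p = 0.994). AT5G64790 read 8209.3 and 11284.3 in mature pollen, 8217.7 and 12418.8 in hydrated pollen, and 6372.4 and 9849.7 in tubes. Its stages overlapped as well, at -0.35 ± 0.36 in tubes against hydrated pollen (limma adjusted p = 0.769).

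Most of the remaining GH17 genes were near background. AT3G04010 read 127.4 and 79.7 in mature pollen, 134.6 and 91.9 in hydrated pollen, and 198.5 and 146.9 in tubes. Its change in tubes did not pass, at 0.62 ± 0.44 against hydrated pollen (limma adjusted p = 0.622). AT5G55180 stayed between 62.8 and 105.1 on all 6 arrays. The plasmodesmal glucanases PdBG1 (AT3G13560) and PdBG2 (AT2G01630), which open the callose collars of cell-to-cell channels, read 8.7 to 31.9 and 2.8 to 26.9. AT2G26600 read 29.7 and 31.6 in mature pollen, 29.6 and 21.6 in hydrated pollen, and 3.9 and 2.7 in tubes. It lay above the 60th percentile on 2 arrays only, and its change of -3.24 ± 1.21 in tubes against mature pollen (limma adjusted p = 0.163) passed without the intensity trend (adjusted p = 0.0393). Its tube signals lay below the percentiles of those arrays, 31.5 and 19.7, so the size of this change rests on values at background. With each array floored at its 60th percentile the change was -0.40.

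Among GH1 beta-glucosidases, 22 of 47 listed genes were named on the array, and 21 remained without BGLU15. Of these, 2 lay above the 60th percentile on all 6 arrays, 11 on none, and 6 passed the filter for testing. None of the 6 passed in any of the 3 comparisons by limma's adjusted p, nor at an unadjusted p under 0.05 (0 of 6 each time). The shares called among all tested probe sets were 4.57% in tubes against hydrated pollen, 0.578% in hydrated against mature pollen and, for tubes against mature pollen, 7.9%. With so few genes, 0 of 6 lies near these shares. The median log2 change of the 6 was 0.47 in tubes against hydrated pollen, -0.73 in hydrated against mature pollen and -0.30 in tubes against mature pollen. All tested probe sets together had medians in these comparisons of -0.06, -0.02 and -0.12. The 6 tested relatives had values from -1.39 to -0.25 in hydrated against mature pollen, none of which passed. BGLU15 stood at 0.86 there, but it was chosen on its signal, so the contrast is no result. Of the 6, BGLU42, BGLU27 and BGLU47 were near background, above the 60th percentile on 3, 2 and 2 arrays. Their values were -0.25 ± 1.19, -1.39 ± 1.24 and -0.55 ± 3.34 (SE from limma), so their signs are uncertain. BGLU36, BGLU40 and BGLU16 stood at -0.52 ± 0.47, -0.92 ± 0.56 and -1.06 ± 0.63, and did not pass either. The difference between BGLU15 and its relatives was not tested.

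BGLU36, a relative of the myrosinases that split mustard oil glucosides, read 357.1 and 461 in mature pollen, 222.2 and 361.3 in hydrated pollen, and 197.5 and 523.1 in tubes. The tube arrays of BGLU36 enclosed all others, and its change against hydrated pollen was 0.18 ± 0.47 (limma adjusted p = 0.932). BGLU40 read 82.7 and 49.4 in mature pollen, 41.7 and 27.5 in hydrated pollen, and 61.3 and 53.8 in tubes. BGLU16 read 57.1 and 44.7 in mature pollen, 19 and 30.8 in hydrated pollen, and 50.5 and 35.1 in tubes. Neither gene passed in hydrated against mature pollen (limma adjusted p = 0.903 for BGLU40 and 0.895 for BGLU16). PYK10, the beta-glucosidase of root endoplasmic reticulum bodies, read 5.4 to 34.7 over the 6 arrays, and ATA27, a tapetum gene of the family, 1.2 to 16.6.

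BGLU15 sits beside other GH1 genes in the gene order of the TAIR10.1 assembly, and its near neighbours were looked up after the data had been seen. The following 4 genes are BGLU28, BGLU29, BGLU17 and PEN2. BGLU28 read 27.2 and 1 in mature pollen, 21.9 and 16.6 in hydrated pollen, and 11.9 and 1.9 in tubes, below the 60th percentile on every array. BGLU29 read 4.2 and 12.1 in mature pollen, 19.5 and 2.2 in hydrated pollen, and 3.3 and 2.6 in tubes, also below it. BGLU17 and PEN2 were not named here. Of the 10 genes nearest to BGLU15, 5 were named and 1 was tested, AT2G44500. That gene read 107.6 and 140.7 in tubes, against 4.8 and 16.5 in hydrated pollen, where neither array was above background. Its log2 change was 3.79 (limma adjusted p = 0.0158, and 0.13 without the intensity trend). Leaving out 1 array gave 2.90 to 4.68, and the call did not hold without hydrated array 1 or either tube array. As the hydrated values were at background, AT2G44500 is given as at least 4.84-fold higher in tubes, a bound which that p does not test. In mature pollen AT2G44500 read 64 and 35.9, and neither hydrated pollen nor tubes passed against it (limma adjusted p = 0.415 and 0.378). Shares called over all tested probe sets were 4.57% in tubes against hydrated, 0.578% in hydrated against mature and 7.9% in tubes against mature pollen. Around AT4G26830, 6 of the 10 nearest genes were named and 2 were tested. AT4G26820, the gene just before it, read 65.1 and 13.8 in mature pollen, 35.1 and 4 in hydrated pollen, and 55.6 and 22.7 in tubes. AT4G26860 read 47.6 and 24.4 in tubes, against 38.6 and 44.6 in hydrated pollen, and neither gene passed in any comparison (0 of 2, with limma adjusted p from 0.529 up).

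Other enzymes of wall polysaccharides were set beside the pair, in lists of GH9 cellulases, xyloglucan transglucosylases (XTH), GH35 beta-galactosidases and GH3 xylosidases. Of 76 listed genes 26 were named here and 11 were tested, 7 GH9, 3 XTH and 1 GH35. In tubes against hydrated pollen 1 rose and 0 fell among the 11, beside 4.57% of all tested probe sets called (2.54% upward), and the median log2 change was 0.07 against -0.06 for all. In tubes against mature pollen 1 rose and 0 fell, beside 7.9% of all (4.61% upward), with medians of -0.17 for the 11 and -0.12 for all. In hydrated against mature pollen 0 passed by limma, where 0 had an unadjusted p under 0.05, beside 0.578% of all, and the medians were -0.14 and -0.02. The gene that rose was GH9B5, of the endo-1,4-beta-glucanases that cut cellulose-type chains. GH9B5 read 734.7 and 384.6 in mature pollen, 440.5 and 315 in hydrated pollen, and 1589.8 and 1606.8 in tubes. Its hydrated and mature arrays overlapped. The rise was 2.10 ± 0.37 against hydrated pollen (limma adjusted p = 0.00921) and 1.59 ± 0.37 against mature pollen (limma adjusted p = 0.0249). Against hydrated pollen the adjusted p was 0.125 without tube array 1, 0.092 without tube array 2 and 0.11 without hydrated array 2. Against mature pollen it was 0.168 without tube array 1, 0.154 without tube array 2 and 0.139 without mature array 2. Without the intensity trend it was 0.182 and 0.203.

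In hydrated against mature pollen GH9B5 differed by -0.51 ± 0.37 on the log2 scale, which did not pass (limma adjusted p = 0.93). The other GH9 genes with high signals were GH9A4, at 17379.7 to 25849.7, and GH9B11, at 9963.7 to 14866.5. Neither passed in any comparison, with log2 changes from -0.38 to 0.07. GH9B6 read 485.8 and 441.4 in tubes, against 365.7 and 209.6 in mature pollen, where the change of 0.74 ± 0.36 did not pass (limma adjusted p = 0.309). BGAL16 of family GH35 read 582 and 596.4 in tubes, against 374.7 and 301.8 in mature pollen (0.81 ± 0.31, limma adjusted p = 0.175). XTH29 read 147.5 and 231.4 in tubes, against 236.1 and 491.2 in mature pollen (-0.88 ± 0.43, limma adjusted p = 0.317). With the replicate number as a block, all 3 passed in this comparison, at adjusted p = 0.0388 for GH9B6, 0.01 for BGAL16 and 0.0201 for XTH29. The block gave 2159 calls over all tested probe sets in this comparison, against 901 without it. Callose synthases, which build the polymer that GH17 enzymes cut, were listed as 12 genes, of which 0 were named here, as were 0 of 4 GH3 genes.

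**Figure D3:**
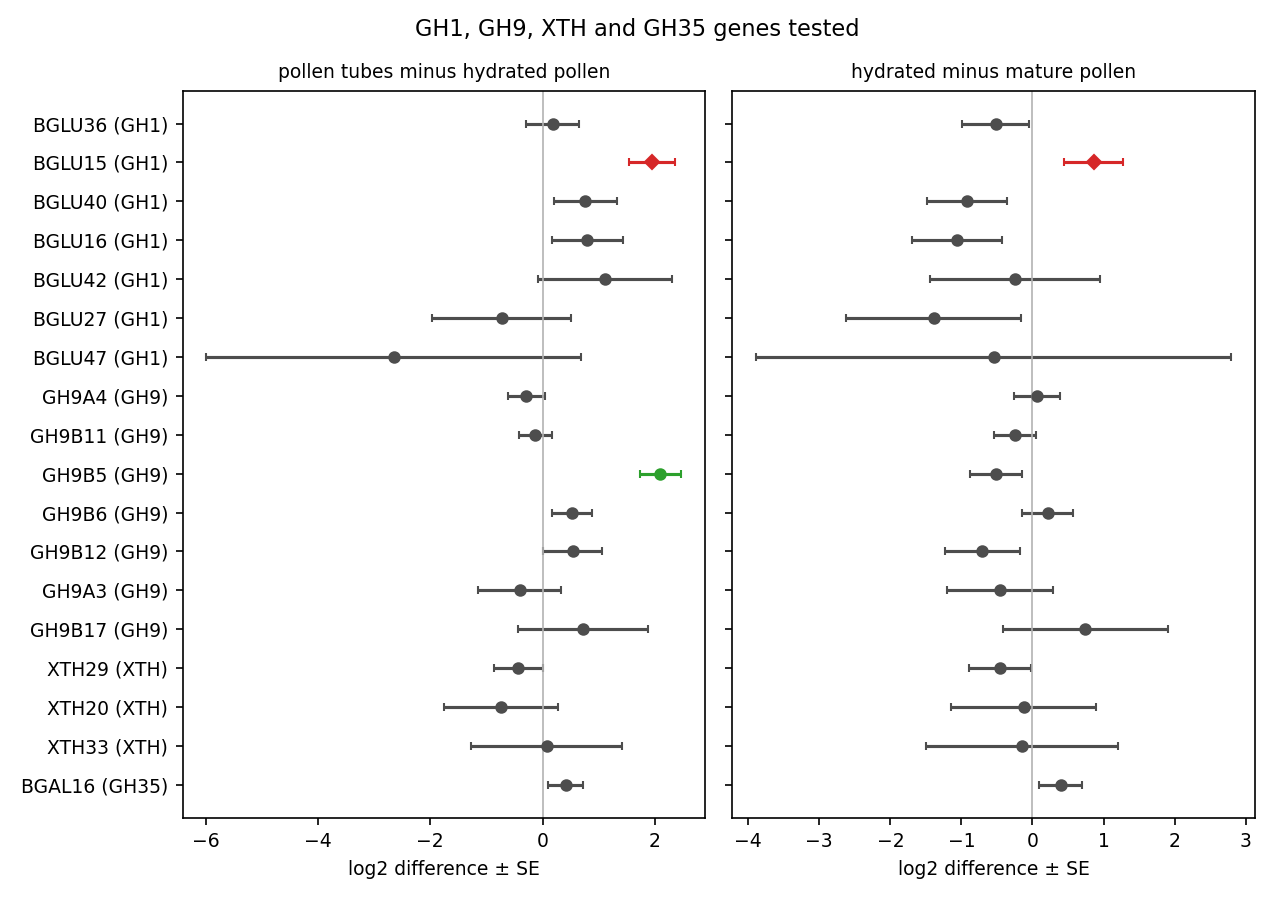
Log2 difference with its SE for the tested GH1, GH9, XTH and GH35 genes, in tubes minus hydrated pollen (left) and hydrated minus mature pollen (right). BGLU15 (red diamond) lies at 1.95 and 0.86, and GH9B5 (green, adjusted p under 0.05) at 2.10 in the left panel, where no other gene passed.

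The genes most like AT4G26830 over the 6 arrays were sought among 6510 other genes' probe sets, by the root mean square difference of log2 signals centred on their mean. The closest was TET8, a tetraspanin of the plasma membrane, at 0.42 (Pearson r = 0.989 over 6 arrays). TET8 read 28.4 and 30.5 in mature pollen, 70.7 and 42.7 in hydrated pollen, and 2047.1 and 1087.9 in tubes. AT4G18070 followed at 0.43 (r = 0.995), with 51.6 and 43.3 in mature pollen, 83.3 and 109 in hydrated pollen, and 1730 and 2170.3 in tubes. AT5G66650, of the calcium uniporter family, at 0.44 (r = 0.989) and the MYB-related factor AT5G08520 at 0.50 (r = 0.983) lay below the 60th percentile in mature and hydrated pollen, at 1.9 to 6.8, so their likeness rests on values at background. AT3G26870 came after them at 0.56 (r = 0.979), with 17.6 and 24.6 in mature pollen, below the percentile on both arrays. TET8 too was below it on the first mature array. Only the first 3 were within 0.5, where the median over all compared genes was 2.81.

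Distances from BGLU15 are not set against those from AT4G26830, since they grow with the size of a gene's changes. TUB7, a beta-tubulin, lay at 0.10 (r = 0.997 over 6 arrays), with 60.8 and 53.7 in mature pollen, 99.8 and 83.1 in hydrated pollen, and 386.6 and 421.7 in tubes. The next 4 were AT1G20270 at 0.23, the zinc finger protein SAP9 (AT4G22820) at 0.23, AT5G19290 at 0.24 and the MYB-related factor AT5G61620 at 0.26, with r from 0.976 to 0.991. AT1G20270 read 20.6 and 13.8 in mature pollen, below the 60th percentile on both arrays. In all, 57 of the 6510 genes were within 0.5 of BGLU15, beside a median of 1.43 over all. Over the 6 arrays at 3 stages, a coefficient above 0.95 was reached by 112 of the 6510 genes for AT4G26830 and by 106 for BGLU15.

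**Figure D4:**
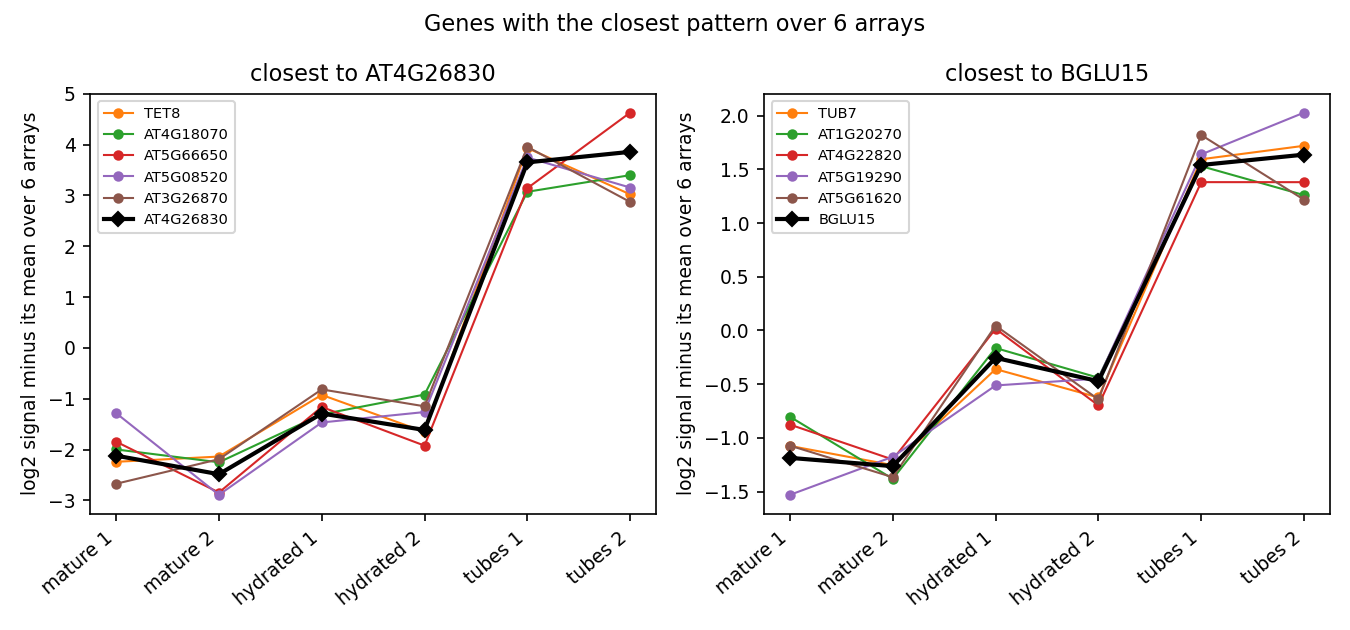
Log2 signal minus its mean over the 6 arrays for AT4G26830 (left, black) and BGLU15 (right, black) with the 5 genes of closest pattern in each case (coloured). The step from hydrated pollen to tubes is 5.20 log2 units for AT4G26830 and 1.95 for BGLU15.

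Array medians ranged from 14 to 24.3 and the 60th percentile from 19.7 to 34.1, both lowest on the second tube array. All 5 named pollen markers of 14 listed lay above the percentile on every array, with summed signals of 57723.6 and 41332.3 in mature pollen, 48852.4 and 46197.6 in hydrated pollen, and 49832.5 and 37945.5 in tubes. AT3G07820, at 23534.2 to 42491.4, made up most of each sum. Among the others, MGH3 marks sperm cells and ANX1 and ANX2 are receptor kinases of the tube. AGL66, a MADS-box transcription factor of pollen, read 1729.4 and 1296.5 in mature pollen, 1162.8 and 588.5 in hydrated pollen, and 427.6 and 376.5 in tubes. It fell in tubes against mature pollen by 1.90 ± 0.37 on the log2 scale (limma adjusted p = 0.00995). That adjusted p was 0.0631 without mature array 1, 0.0852 and 0.0944 without tube array 1 or 2, and 0.15 without the intensity trend. Its changes of -0.86 in hydrated against mature pollen and of -1.04 in tubes against hydrated pollen did not pass (limma adjusted p = 0.787 and 0.184), and passed with the replicate number as a block (adjusted p = 0.0282 and 0.00161). Without the block the other 4 pollen markers did not pass in any comparison. With it, 1 of the 5 rose and 2 fell in tubes against mature pollen. Over all tested probe sets, calls in tubes against mature pollen numbered 2159 with the block and 901 without it. In hydrated against mature pollen they numbered 421 and 66, and in tubes against hydrated pollen 1646 and 522. Markers of other tissues were few, with 1 of 11 listed for photosynthesis, 3 of 8 for the tapetum and 4 of 6 for pistil and nectary named here. Their highest signal was 50.8, for the carpel gene SPT on the first tube array. SPT was above the percentile on both tube arrays and on no other, at 50.8 and 25.6 against 7.1 and 14.5 in hydrated pollen. Its tube values did not pass against hydrated or mature pollen (limma adjusted p = 0.462 and 0.648). SWEET9 of the same list read 48.8 and 25.8 in mature pollen, 32.5 and 12.9 in hydrated pollen, and 35.9 and 3.7 in tubes. SWEET9 did not pass in any comparison (limma adjusted p from 0.535 up), and the other 2 genes of this list were not tested. Of these 2, AT3G12000 was above the percentile on the second tube array alone, at 24.1. RCA, for photosynthesis, was above it on the first hydrated array at 30.5 and on the first tube array at 47.2. It read 7.9 and 15 on the second ones, and did not pass in any comparison (limma adjusted p from 0.835 up). SHT, for the tapetum, was above it on the second hydrated array, at 29.2. Summed signals of the pistil and nectary genes were 95.5 and 61.8 in mature pollen, 77.5 and 32.2 in hydrated pollen, and 126.6 and 60.3 in tubes. Those of the tapetum genes were 20.9 and 13.7 in mature pollen, 36.5 and 32.1 in hydrated pollen, and 38.3 and 3.6 in tubes. The part of other tissues in the tube signals of AT4G26830 and BGLU15 was not tested.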

How the data were processed

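The values are linear signal intensity, 1 per probe set and array, as deposited by the authors. Per the submitters' processing notes, the software was GCOS 1.0 with MAS5. From 8 µg of total RNA, 20 µg of biotin-labelled cRNA was made per array, per the labels' protocols. The mean of each array without the lowest and highest 2% was 98.5 to 98.7 over probe sets other than controls, as scaling each array to 1 target would give. Detection calls were not used here.

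Of 22810 probe sets, 64 controls were left out, 13513 were paired with 1 gene, 503 with several, and 8730 were unnamed here. Gene names are those of the platform annotation, brought up to date with RefSeq's gene table of the TAIR10.1 assembly, which holds 13436 of the single-gene probe sets. Coordinates are left out, as the sources used here give no build for the array. Probe, promoter and protein sequences were not used here, and the nearest relative by protein identity was not sought.

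Signals were floored at 0.1 before log2. Testing required a signal over the 60th percentile of the array on 2 or more of the 6 arrays, which 11412 probe sets met. One limma 3.58.1 fit (R 4.3.3) held a mean per stage over all 6 arrays, with 3 residual degrees of freedom and an intensity trend. Tests were two-sided, with Benjamini-Hochberg adjustment over all tested probe sets within a comparison and a threshold of 0.05. "At least" folds set the dim stage at its percentile. On data simulated for tubes against hydrated pollen with 11412 probe sets, the fit recovered 43 of 100 changes of 2 log2 units and 84 of 100 of 4, with 4 false calls. The simulated noise was normal, with a spread set by mean signal alone. Real probe sets of like signal can differ in spread, so recovery and false calls in the real data can differ from these figures. The number of arrays limits the precision.

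The members and gene lists were chosen with earlier results of these data known. Named were the pair, genes of the enzyme lists called in any comparison, the brightest gene of each such list, and the 5 closest patterns of each gene of the pair. Other list genes named, namely AT5G20390, AT5G64790, GH9B11, PdBG1, PdBG2, AT3G04010, AT5G55180, AT2G39640, AT2G26600, BGLU40, BGLU16, PYK10, ATA27, GH9B6 and the marker genes, were chosen after their values were seen. So were BGLU42, BGLU27 and BGLU47.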

Additional observations from a re-analysis of the deposited data

How the results depend on the processing

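The differences of the pair kept their sign under every alternative run. Since no arrays of different stages overlapped for either gene, leaving out 1 array or pairing could not turn a sign. Within replicate numbers 1 and 2, the paired view of the replicate block, AT4G26830 differed by 4.94 and 5.47 in tubes against hydrated pollen and by 5.77 and 6.34 against mature pollen, and BGLU15 by 1.80 and 2.11, and by 2.73 and 2.90. Quantile normalization gave 6.32 for AT4G26830 in tubes against mature pollen, and for BGLU15 1.80 in tubes against hydrated and 1.00 in hydrated against mature pollen. Leaving out 1 array gave 5.04 to 5.37, 5.87 to 6.24 and 0.67 to 1.03 for AT4G26830 (tubes against hydrated, tubes against mature, hydrated against mature pollen), and 1.84 to 2.06, 2.77 to 2.86 and 0.75 to 0.97 for BGLU15.

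Counts over all probe sets moved more. For hydrated against mature, tubes against hydrated, and tubes against mature pollen the counts were 66, 522 and 901, and 421, 1646 and 2159 with the replicate block. Without the intensity trend they were 0, 0 and 228, with 731, 1494 and 1885 at an unadjusted p under 0.05. Flooring each array at its 60th percentile gave 103 and 870 in the first and second comparison, and a common 75th percentile 301 in the second. The share of rises in the third was 69.1% with that scaling against 58.4%, and the median of all probe sets in the first was 0.08 against -0.02. Leaving out 1 array gave 27 to 90, 85 to 660 and 349 to 757.

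GH17 genes had 1 fall in tubes against mature pollen with the block (AT3G55430) and 1 without the trend (AT2G26600), and 0 calls under the other alternatives. GH1 genes had 0 throughout. For the other wall enzymes the single call in tubes against hydrated pollen was 0 without the trend and 0 to 1 leaving out 1 array. In tubes against mature pollen it was 0 without the trend, 0 to 1 leaving out 1 array, and 4 calls with the block. Of changes that had not passed, quantile normalization turned the sign of AT5G20390 (0.39), AT5G64790 (0.04), GH9A4 (0.02) and GH9B11 (0.24) in tubes against hydrated pollen, and of AT5G64790 (0.13), GH9A4 (0.09) and GH9B11 (0.01) against mature pollen. Leaving out 1 array also turned signs. In hydrated against mature pollen the ranges were -0.02 to 0.49 for AT5G20390, -0.23 to 0.37 for AT5G64790, -0.20 to 0.48 for AT3G04010, -0.22 to 0.35 for GH9A4, -0.19 to 0.62 for GH9B6 and -0.98 to 0.07 for XTH29. In tubes against hydrated pollen they were -0.23 to 0.20 for AT5G20390 and -0.52 to 0.88 for BGLU36. In tubes against mature pollen they were -0.04 to 0.47 for AT5G20390, -0.59 to 0.03 for AT5G64790, -0.51 to 0.06 for GH9A4 and -1.04 to 0.37 for BGLU36. The cause was not tested. Replicate numbers share no stated origin, and same-numbered arrays deviated together with r of 0.174 to 0.221 across probe sets. No value could be had for callose synthases, as 0 were named.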
